A study of Mus musculus with 2 samples.

Results

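Heat shock proteins and their J-domain co-chaperones were followed in macrophages of the abdominal cavity from mice with endotoxemia, with and without the compound LCC-12. The members were the protein-coding genes whose GENCODE M21 symbol begins with Dnaj, Hspa, Hspb, Hsph, Hspd, Hspe or Hsp90, together with Hsf1, Bag3, St13 and Stip1. This rule took 78 of the 21903 protein-coding genes in a table of 55487 gene IDs. All mice were 5-week-old males of the outbred SWISS stock, received 20 mg/kg LPS from Escherichia coli into the peritoneum and 30 mL/kg saline under the skin 6 h later, and were killed 22 h after LPS. The LPS library was made from 102283 sorted small peritoneal macrophages pooled from 7 mice. The LPS+LCC-12 library was made from 66967 such cells pooled from 8 mice that had also been given LCC-12 (0.3 mg/kg, by the same route as LPS) at the 6 h time. This compound is known to bind copper in mitochondria. Both groups carried the LPS challenge, the labels state no vehicle for the mice without LCC-12, and no mice without LPS were analysed here. Each group was 1 pool and 1 library, so no difference below could be tested against the spread between mice.

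Heat shock proteins fold new and damaged proteins. HSP70 proteins bind exposed stretches of a client in a cycle driven by ATP: J-domain proteins, which carry the Dnaj symbols, deliver clients and speed ATP cleavage, and HSP110 proteins and BAG proteins release the nucleotide. Clients can then pass through Stip1 to HSP90, which matures many signalling proteins of macrophages. The transcription factor HSF1 raises the inducible genes of these families by binding repeats of GAA and TTC, the heat shock element, near their start sites.

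The sequences that bear on the inducible members are the stretches before the start sites given in RefSeq, taken from the RefSeq promoter table on GRCm38.p6. Of the 78 members, 62 had a window there of 250 bases before to 50 bases after a start. The element was searched on both strands as 2 units, GAANNTTC or TTCNNGAA, and as 3 units, in which GAA and TTC alternate with NN between neighbours. A 3-unit match also holds 2-unit matches. Capitals mark the 2-unit matches, and positions are counted backwards from the start site. The paired HSP70 genes Hspa1a and Hspa1b are shown because they had the 2 largest ratios among the members that could be read. The other stretches belong to members that carry the element and had ratios on either side of 0. In GENCODE M21 the stretches of Dnaja1 and Dnajb6 and 26 of the 30 bases of Hsph1 lie in annotated exons of these genes, and that of Hspe1 lies in an exon of Hspd1.
Hspa1a (chr17:34972157-34972306, minus strand, bases -150 to -1): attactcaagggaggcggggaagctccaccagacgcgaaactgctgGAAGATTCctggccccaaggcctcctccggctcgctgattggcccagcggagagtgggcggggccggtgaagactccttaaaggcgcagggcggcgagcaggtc
Hspa1b (chr17:34959239-34959388, minus strand, bases -150 to -1): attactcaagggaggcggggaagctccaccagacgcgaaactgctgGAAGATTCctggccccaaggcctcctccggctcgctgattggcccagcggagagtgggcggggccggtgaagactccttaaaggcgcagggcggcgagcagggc
Dnaja1 (chr4:40722333-40722362, plus strand, capitals at -124 to -117): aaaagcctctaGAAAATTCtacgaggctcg
Hsph1 (chr5:149636351-149636380, minus strand, capitals at -54 to -47): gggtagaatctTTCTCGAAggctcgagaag
Hspe1, inside Hspd1 (chr1:55088053-55088082, plus strand, capitals at -89 to -72): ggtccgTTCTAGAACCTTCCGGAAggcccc
Dnajb6 (chr5:29735843-29735872, plus strand, capitals at -46 to -34): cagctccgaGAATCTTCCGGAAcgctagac
Dnaja4 (chr9:54699464-54699493, plus strand, capitals at -90 to -83): tccgcGAACGTTCtgggcctatgtggcgtc

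The total count was 50618409 for LPS and 47721888 for LPS+LCC-12. Levels are in CPM, counts relative to the scaled library size, and ratios are log2 of LPS+LCC-12 over LPS with an exact 95% interval that covers counting error only. Macrophage markers were abundant in both libraries, with 41890 and 39897 counts of Adgre1, which encodes F4/80, and the chemokine receptor gene Ccr2 had 18229 and 17434. The summed level of 8 macrophage markers was 7351 CPM under LPS alone and 8581 under LPS+LCC-12. Intervals lay above 0 for 3 of them, with Lyz2 1.48-fold higher, and below 0 for 5, with Cd14 1.29-fold lower. Lyz2 alone was at 3049 and 4508 CPM, a wider gap than that of the sum. The libraries also differed in markers of other cell types. The labels used here say that the cells were sorted and do not describe the gate. The summed level of 11 neutrophil markers was 9298 CPM under LPS alone and 3514 under LPS+LCC-12, with intervals below 0 for 10 and an interval across 0 for Camp. Gata6, which defines large peritoneal macrophages, had 529 and 720 counts. Other markers of these cells differed more, with 466 and 10022 counts of Cd5l and 318 and 5056 of Timd4, whereas Selp was lower at 5572 and 4575. The summed level of 9 large peritoneal macrophage markers was 360 and 1086 CPM with 8 of 9 higher, and that of 9 small peritoneal macrophage markers 901 and 1563 CPM with 8 of 9 higher. Monocyte markers were lower in 5 of 6 genes, but summed to 5967 and 11728 CPM. Most of these sums was Fn1, at 3114 and 10656 CPM, which was 3.42-fold higher. Summed levels of mast cell, mesothelial, fibroblast and muscle markers were 15.2, 8.09, 14.8 and 30.3 CPM under LPS alone and 5.40, 1.36, 5.13 and 10.4 under LPS+LCC-12. Wt1 (mesothelial) and Pdgfra (fibroblast) had 8 and 18 counts under LPS alone and 0 under LPS+LCC-12. Lrrn4 (mesothelial), Cd209a (dendritic cell) and Cnn1 and Acta1 (muscle) were also at 0 under LPS+LCC-12 only. Emcn (endothelial) and Clec9a (dendritic cell) were at 0 with LPS only. These 6 had 3 counts or fewer in the other library, too few to tell from 0. Des, Myl9 and Lum were at 0 in both. B cell markers summed to 175 and 207 CPM, T cell markers to 3.68 and 1.86, dendritic cell markers to 5.59 and 4.76 and endothelial markers to 1.42 and 2.42. The part of these differences in the ratios below was not tested, and in pooled cells fewer cells of a type and less RNA per cell cannot be told apart.

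As a family, the 78 members took a slightly larger share of the RNA with LCC-12. Their counts were 0.793% of all counts with LPS (exact binomial interval 0.790 to 0.795%) and 0.898% under LPS+LCC-12 (0.896 to 0.901%). Their summed level was 8034 CPM and 8865 CPM, a gain of 10.3%. The net gain of 831 CPM was made of 1030 CPM of gains in 49 members and -200 CPM of losses in 22 members. Hspa8 alone gained 437 CPM, which is 42.5% of the summed gains. Without Hspa8 the summed level was 7394 and 7787 CPM, a gain of 5.32%. Hsp90ab1 added 206 CPM and Dnajc10 and Dnaja1 47.6 and 35.4 CPM, whereas the differences of Hsp90b1 and Hsp90aa1 were -94.5 and -31.9 CPM. The family was uneven: the 5 most abundant members held 60.7% of its level under LPS alone and 61.0% under LPS+LCC-12.

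**Figure D1:**
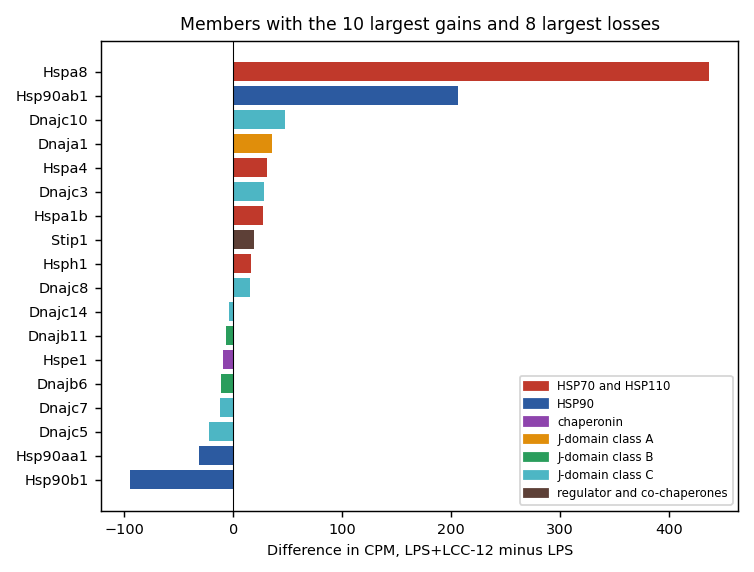
Difference in CPM between the LPS+LCC-12 and LPS libraries (horizontal axis) for the members with the largest gains and losses, coloured by role. Hspa8 gained 437 CPM and Hsp90ab1 206 CPM, and the difference of Hsp90b1 was -94.5 CPM.

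Of the 78 members, 63 had at least 50 counts in the library with more, 8 had fewer and 7 had 0 counts in both. Only Hspa1a and Hspa1b were 2-fold or more higher, no member was 2-fold or more lower, and the other 61 lay between these limits. The pair is 3.17% of the 63 members, beside 3.81% of 11220 protein-coding genes at least 2-fold higher and 4.46% at least 2-fold lower under the same rule. At 1.5-fold, 6 members or 9.52% were higher, beside 9.35% of protein-coding genes, and 1 member was lower, beside 9.85%. The family's share past either size in the higher direction was therefore close to the background. Counting intervals lay wholly above 0 for 33 members (52.4%, background 39.9%) and wholly below 0 for 9 (14.3%, background 31.2%), and spanned 0 for 21. The median log2 ratio was 0.11 over the 63 members and 0.05 over all protein-coding genes. The middle 50% of members lay between -0.04 and 0.27, and of all protein-coding genes between -0.20 and 0.27.

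**Figure D2:**
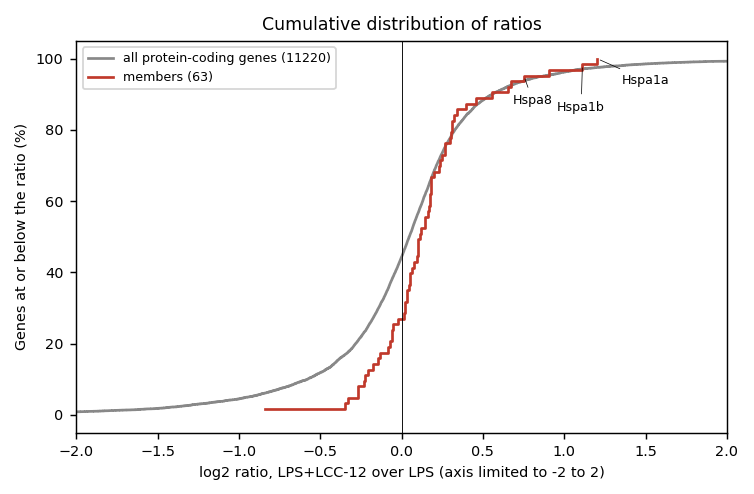
Cumulative share of genes (vertical axis, percent) at or below each log2 ratio (horizontal axis) for the 63 members read here and 11220 protein-coding genes. The upper quartile is 0.27 for both, and below 0 the members' curve lies under the background, with 17 of 63 members below 0.

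The inducible HSP70 genes had the largest ratios among these 63 members. Hspa1a (chromosome 17, 34969190 to 34972156, GRCm38, minus strand) had 452 counts under LPS alone and 1007 under LPS+LCC-12, or 9.05 and 20.8 CPM. It was 2.30-fold higher, with a log2 ratio of 1.20 (interval 1.04 to 1.37). Hspa1b (chromosome 17, 34956436 to 34959238, minus strand), which encodes a nearly identical protein, had 1180 and 2471 counts, or 23.6 and 51.1 CPM. Its log2 ratio was 1.11 (1.01 to 1.21), a 2.16-fold difference. Among protein-coding genes, 97.5% had a lower ratio than Hspa1a and 97.1% a lower ratio than Hspa1b. Reads of this pair can be hard to assign, because 1350 distinct windows of 100 bases, the read length, are found in transcripts of both. These are 47.1% of the windows of Hspa1a and 49.9% of those of Hspa1b. Counted as 1 gene, they had 1632 and 3478 counts and a log2 ratio of 1.14 (1.05 to 1.22). The share of Hspa1a in the pair was 27.7% with LPS (25.5 to 29.9%) and 29.0% under LPS+LCC-12 (27.4 to 30.5%), and these intervals overlap. The stretches printed for the pair differ at 1 of 150 bases, and the full 250 bases before the start at 3. Each holds 1 match, at bases -104 to -97.

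Hspa8, the constitutive HSP70 that also uncoats clathrin vesicles and serves chaperone-mediated autophagy, lies on chromosome 9 (40800984 to 40810087, plus strand). It had 31973 counts under LPS alone and 52124 under LPS+LCC-12, or 640 and 1078 CPM. The gene was 1.68-fold higher, with a log2 ratio of 0.75 (0.73 to 0.77), and 93.7% of protein-coding genes had a lower ratio. Per kb of exon it stood at 149 CPM, rank 5 among the members, under LPS alone and at 251 CPM, rank 2, under LPS+LCC-12. In the second library its counting interval (248 to 253 CPM per kb) overlapped that of Hsp90b1 (247 to 252), so that order is not resolved. The processed pseudogene Gm15459 (chromosome 5, 5781615 to 5783555, minus strand) holds 1342 of the 5110 windows of Hspa8, or 26.3%, and the lincRNA Gm26825, with 27 and 32 counts, holds the same number. Gm15459 was listed with 11723 and 19641 counts and a log2 ratio of 0.79 (0.76 to 0.82). Its share of the summed counts of Hspa8 and Gm15459 was 26.8% with LPS (26.4 to 27.2%) and 27.4% under LPS+LCC-12 (27.0 to 27.7%). Summed, the 2 loci had 43696 and 71765 counts and a log2 ratio of 0.76 (0.74 to 0.78). Whether reads of Hspa8 were placed at Gm15459 was not tested.

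The HSP70 proteins of organelles were close to equal in the libraries. Hspa5, known as BiP, the HSP70 of the endoplasmic reticulum, had 46229 and 45468 counts and a log2 ratio of 0.02 (0.00 to 0.04). Its direction depended on the scaling, since the ratio was -0.012 by the upper quartile. Hspa9, the mitochondrial HSP70, had 9406 and 9789 counts (log2 ratio 0.10, 0.06 to 0.14). Hspa13, a smaller HSP70-like protein of the endoplasmic reticulum, had 2145 and 2111 counts and an interval across 0 (-0.06 to 0.11).

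The HSP110 exchange factors were slightly higher. Hsph1 had 3993 and 4663 counts (log2 ratio 0.27, 0.21 to 0.33), Hspa4 had 12145 and 13265 (0.17, 0.14 to 0.21) and Hspa4l had 2197 and 2287 (0.10, 0.02 to 0.19). Hspbp1, another exchange factor, had 671 and 718 counts, and Hspa14, which works at ribosomes, 1001 and 1052. Their intervals spanned 0, as did that of Hspa2, a member best known from the testis, with 249 and 267 counts. Hspa12a, a divergent member of the family, had 63 and 115 counts, a 1.88-fold difference (0.91, 0.46 to 1.38). Hspa12b had 9 and 19 counts, too few to be read. Hspa1l, next to Hspa1a on the opposite strand, had 51 and 42 counts (-0.23, -0.86 to 0.38). Gm10501, an antisense gene that overlaps 71.9% of the exon bases of Hspa1l, had 34 and 67 counts, and without a stated strand setting their reads cannot be told apart. As a group, with Hspbp1 counted among them, 13 of the 14 HSP70 and HSP110 genes with enough counts had ratios above 0. The background share was 55.7% of protein-coding genes. Of the 14, 9 had intervals above 0 (64.3%, background 39.9%). The summed level of the group, with Hspbp1 and Hspa12b included, was 2238 CPM under LPS alone and 2799 CPM under LPS+LCC-12, which is 1.25-fold higher. Most of this difference was Hspa8, at 640 and 1078 CPM.

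**Figure D3:**
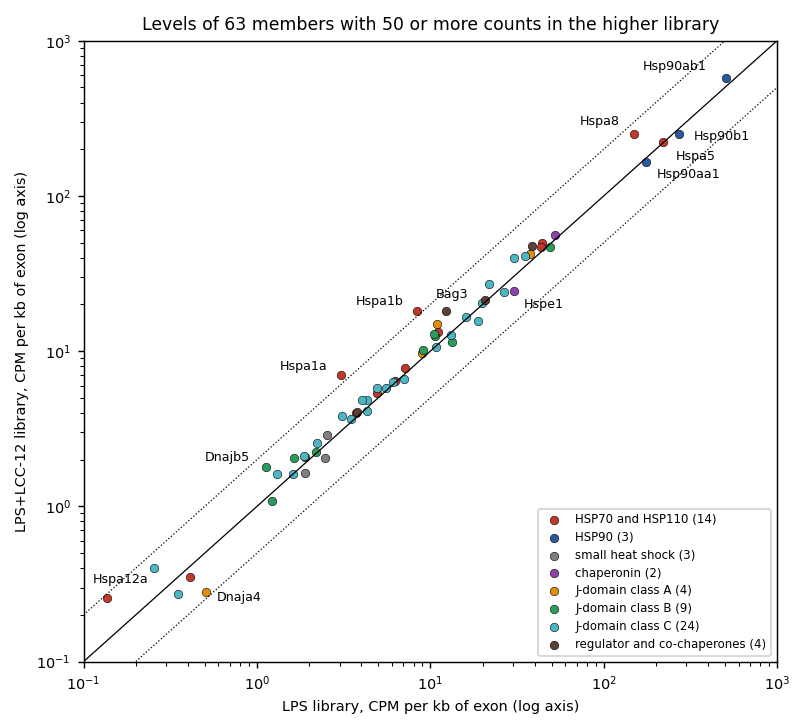
Level of each of the 63 members in the LPS library (horizontal axis) and in the other library (vertical axis), in CPM per kb of exon on log axes, coloured by role. The solid line marks equal levels and the dotted lines 2-fold differences, and Hspa1a and Hspa1b are the points beyond the upper dotted line.

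The 3 HSP90 genes were among the 5 most abundant members per length in both libraries, and their ratios lay on both sides of 0. Hsp90ab1, the constitutive cytosolic HSP90, had 76223 counts under LPS alone and 83801 under LPS+LCC-12. Its level was 509 and 578 CPM per kb, first among the members in both libraries, and its log2 ratio 0.18 (0.17 to 0.20). Hsp90aa1, the stress-inducible cytosolic form, had 34295 and 31675 counts and a log2 ratio of -0.07 (-0.09 to -0.05). Hsp90b1, known as GRP94, which folds Toll-like receptors and integrins in the endoplasmic reticulum, had 54991 and 48689 counts and a log2 ratio of -0.13 (-0.15 to -0.11). The summed level of the group was 3314 and 3394 CPM, 1.02-fold apart. Transcripts of Hsp90aa1 share 38.0% of their windows with other genes, most of them with the pseudogene Gm12346, which had 394 and 351 counts.

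The mitochondrial chaperonin genes lay on opposite sides of 0. Hspd1, which encodes HSP60, had 6924 counts under LPS alone and 7183 under LPS+LCC-12 (log2 ratio 0.10, 0.05 to 0.15). Hspe1, which encodes its lid HSP10, had 2245 and 1728 counts and was 1.26-fold lower (-0.33, -0.42 to -0.24). These intervals do not overlap. The share of Hspe1 in the counts of the pair was 24.5% with LPS (23.6 to 25.4%) and 19.4% under LPS+LCC-12 (18.6 to 20.2%). The genes face away from each other on chromosome 1, Hspd1 from 55077835 to 55088243 on the minus strand and Hspe1 from 55088132 to 55091307 on the plus strand, so that their ends overlap by 112 exon bases. The stretch printed for Hspe1 carries 3 overlapping 2-unit matches, which lie in the windows of both genes. Summed, the pair had 9169 and 8911 counts and a log2 ratio of 0.005 (-0.04 to 0.05).

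Small heat shock proteins, which hold unfolded proteins without ATP and are best known from muscle and epithelia, had few counts or none in most cases. Of the 9 genes with symbols in Hspb that were grouped here, without Hspbp1, 3 reached 50 counts. Among these 3, only Hspb1 is itself a small heat shock protein. Hspb1, known as HSP25 or HSP27, had 131 and 144 counts, a level of 2.62 and 2.98 CPM, and a log2 ratio of 0.18 (-0.17 to 0.54). Of its windows 44.0% are also found in the pseudogene Hsp25-ps1, which had 4 and 6 counts. Hspb11, an intraflagellar transport protein, had 254 and 204 counts (-0.27, -0.54 to 0.00), and Hspbap1, named as an associated protein, had 893 and 750 (-0.21, -0.35 to -0.06). Hspb6 had 37 and 26 counts, Hspb7 3 and 7, and Hspb8 3 and 0. Hspb2, Hspb3 and Hspb9 had 0 counts in both libraries, which allows up to 0.060 CPM under LPS alone and 0.062 under LPS+LCC-12, the level of 3 counts. Cryab, a small heat shock protein gene outside the rule, had 58 and 28 counts, while the summed levels of the muscle and fibroblast markers were lower in the same direction. The part of such cells in the counts of Cryab was not tested.

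**Figure D4:**
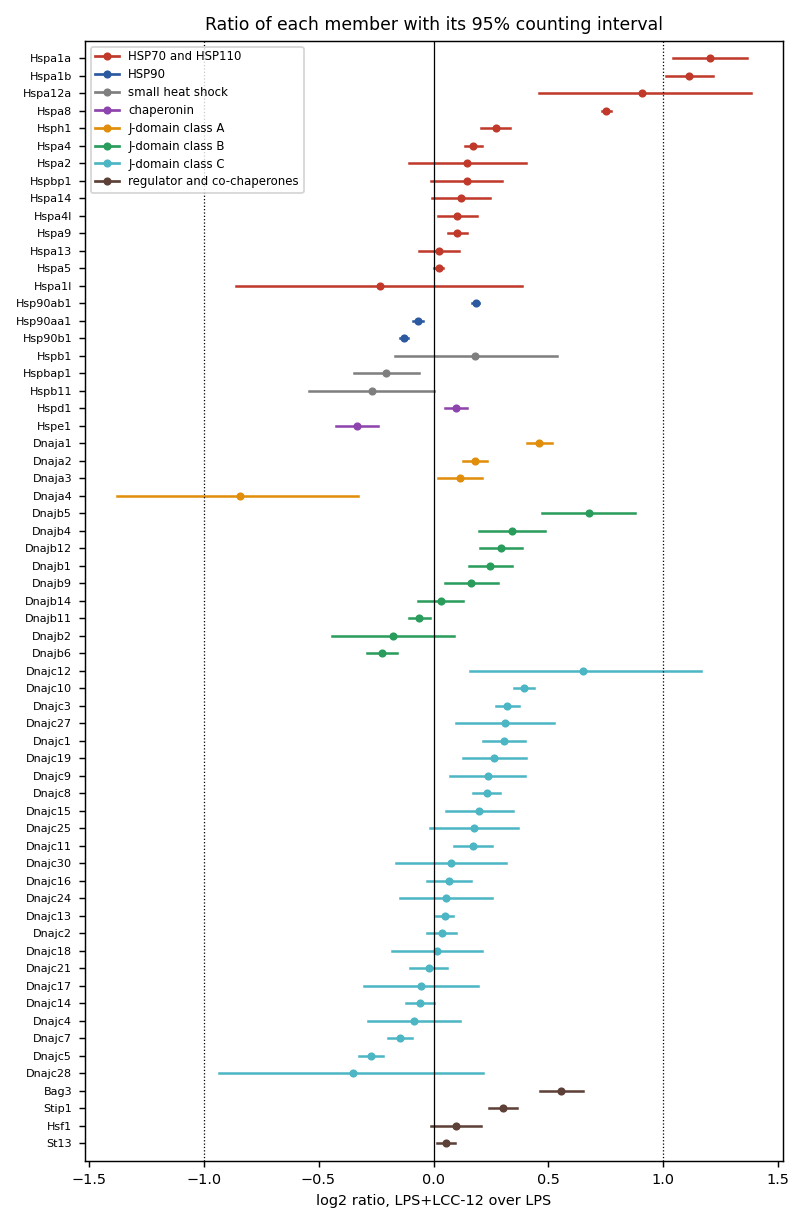
Log2 ratio of LPS+LCC-12 over LPS (horizontal axis) for each of the 63 members, grouped and coloured by role. Points are ratios, bars are exact 95% counting intervals, and dotted lines mark 2-fold differences. Hspa1a and Hspa1b lie beyond the upper line, and Dnaja4, on 91 and 49 counts, is the lowest at -0.84.

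J-domain proteins of classes A and B, which resemble the bacterial DnaJ most closely, had intervals on both sides of 0. In class A, 3 of 4 genes had intervals above 0 (75%, background 39.9%). Dnaja1, a main partner of cytosolic HSP70, had 4713 counts under LPS alone and 6279 under LPS+LCC-12 and was 1.38-fold higher (log2 ratio 0.46, 0.41 to 0.51). Dnaja2, its cytosolic relative, had 5560 and 6108 counts (0.18, 0.13 to 0.23), and the mitochondrial Dnaja3 had 1753 and 1837 (0.11, 0.02 to 0.21). Dnaja4 was 1.79-fold lower on 91 and 49 counts (-0.84, -1.38 to -0.33). Of its exon bases 44.1% overlap Wdr61 on the opposite strand, which had 1038 and 1181 counts.

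In class B, 5 of the 9 genes with enough counts had intervals above 0 (55.6%, background 39.9%) and 2 below (22.2%, background 31.2%). Dnajb1, the inducible partner of Hspa1a and Hspa1b known as HSP40, had 1693 and 1947 counts and a log2 ratio of 0.25 (0.15 to 0.34), below those of the HSP70 pair by more than the counting intervals. Dnajb5 had 335 and 518 counts, 1.60-fold more after scaling (0.67, 0.47 to 0.88), and Dnajb4 had 712 and 873 (0.34, 0.20 to 0.49). Dnajb6, which suppresses protein aggregation, had 4023 and 3335 counts and was 1.17-fold lower (-0.22, -0.29 to -0.16). Dnajb12 and Dnajb14, of the endoplasmic reticulum membrane, had 1769 and 2102 and 1728 and 1711 counts, with log2 ratios of 0.29 (0.20 to 0.39) and 0.03 (-0.07 to 0.13). Dnajb2 had 260 and 223 counts and an interval across 0. Dnajb13, Dnajb7 and Dnajb3 had 34 and 9, 10 and 5, and 4 and 18 counts, and Dnajb8 had 0 in both. The ciliary gene Dnajb13 overlaps Ucp2, with 29582 and 30710 counts, over 11.2% of its exon bases on the opposite strand.

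J-domain proteins inside the endoplasmic reticulum had mixed ratios. Dnajc10, a disulfide reductase known as ERdj5, had 7563 and 9629 counts, 1.31-fold more after scaling (log2 ratio 0.39, 0.35 to 0.44). Dnajc3, which dampens signalling by the kinase PERK, had 5601 and 6778 counts (0.32, 0.27 to 0.37), and Dnajc1 had 1807 and 2166 (0.31, 0.22 to 0.40). Dnajb9, a target of the unfolded protein response, had 1154 and 1253 counts (0.16, 0.05 to 0.28), and Dnajb11 had 7958 and 7386 (-0.06, -0.11 to -0.02). With Hspa5, Hsp90b1 and Hspa13, these 8 genes summed to 2552 CPM under LPS alone and 2553 CPM under LPS+LCC-12. The 8 genes assigned to mitochondria summed to 490 and 519 CPM, and 7 of them had ratios above 0, beside 55.7% of protein-coding genes. Among these, Dnajc19, which assists protein import, had 815 and 948 counts (0.26, 0.13 to 0.40), Dnajc15 725 and 806 (0.20, 0.05 to 0.35) and Dnajc11 2291 and 2499 (0.17, 0.09 to 0.25). Dnajc30 had 288 and 294 counts and an interval across 0. Both compartments were assigned from general knowledge after the values had been seen, so the choice of genes can shape these sums and counts.

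Other class C proteins use their J domain for single tasks. Over all 24 class C genes with enough counts, 11 had intervals above 0 (45.8%, background 39.9%) and 2 below (8.33%, background 31.2%). Dnajc5, the cysteine string protein of secretory vesicles, had 6532 counts under LPS alone and 5245 under LPS+LCC-12 (log2 ratio -0.27, -0.32 to -0.22). Dnajc7, which binds both HSP70 and HSP90, had 6436 and 5633 (-0.15, -0.20 to -0.09). Dnajc13, an endosomal sorting protein with the most counts in this class, had 11784 and 11804 (0.05, 0.01 to 0.09). Dnajc8, a protein of the splicing machinery, had 4484 and 5096 (0.23, 0.17 to 0.29), and the histone chaperone Dnajc9 had 585 and 667 (0.24, 0.07 to 0.40). Dnajc27 was higher on 332 and 399 counts (0.31, 0.10 to 0.53), and Dnajc12 was 1.57-fold higher on 57 and 87 (0.65, 0.16 to 1.16). Intervals spanned 0 for Dnajc2, Dnajc4, Dnajc14, Dnajc16, Dnajc17, Dnajc18, Dnajc21, Dnajc24, Dnajc25 and Dnajc28, whose log2 ratios ran from -0.35 for Dnajc28 to 0.18 for Dnajc25. Dnajc6, which acts with Hspa8 on clathrin coats in neurons, had 3 and 0 counts. Dnajc22, Dnajc5b and Dnajc5g had 0 in both. Over all 45 J-domain genes the summed level was 1920 CPM under LPS alone and 2068 CPM under LPS+LCC-12.

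The regulator of the heat shock response and the named co-chaperones had ratios above 0. Hsf1 had 1335 counts under LPS alone and 1383 under LPS+LCC-12, a difference within counting error (log2 ratio 0.10, -0.01 to 0.21). Bag3, an HSF1 target that releases HSP70 clients and works with Hspb8 in selective autophagy, had 1581 and 2252 counts, 1.47-fold more after scaling (0.56, 0.46 to 0.65). Stip1, which hands clients from HSP70 to HSP90, had 4078 and 4871 counts (0.30, 0.24 to 0.36). St13, which stabilises HSP70 on its client, had 10572 and 10629 (0.05, 0.01 to 0.09).

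Heat shock elements were more frequent in the windows of members than in promoter windows at large. A 2-unit match was present for 17 of 62 members (27.4%) and in 15.1% of all 32851 windows of the same length. A 3-unit match was present for 4 members, Hspd1, Hspe1, Hsph1 and Dnajb6 (6.45%), and in 0.603% of all windows. Some members have more than 1 window, which raises their chance of a match. Counted by window, a 2-unit match was present in 19 of 79 member windows and a 3-unit match in 6. The 3-unit matches of Hspd1 and Hspe1 are the same stretch read from either strand. The 13 members with a 2-unit match and enough counts had a median log2 ratio of 0.31 and ran from -0.84 to 1.20, with 10 of 13 above 0. The 37 members with a window and no such match had a median of 0.11 and ran from -0.35 to 0.91, with 25 of 37 above 0. Among all protein-coding genes with enough counts, 55.7% were above 0. The 13 are not independent: the stretches of Hspa1a and Hspa1b are nearly alike, and Hspd1 and Hspe1 share theirs. Members on both sides of 0 carried the element, since Dnajb6, Hspe1 and Dnaja4 were lower and Dnaja1, Hsph1, Hspa1a and Hspa1b higher. The match of Bag3 lay after the start, at bases 43 to 50, and so did the 3-unit match of Hsph1, at 16 to 28 or 37 to 49 of its 2 windows. A match is a run of letters and was not tied to binding here. The members without a window were Dnajc2, Dnajc5, Dnajc5b, Dnajc11, Dnajc12, Dnajc18, Dnajc22, Dnajc30, Hsf1, Hsp90aa1, Hsp90ab1, Hspa8, Hspa9, Hspa13, Hspb2 and St13.

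Genes that work with these families, none of them members, were read beside the same background, in which 91.7% of protein-coding genes were within 2-fold, 39.9% had intervals above 0 and 31.2% below. The cytosolic chaperonin and prefoldin, which fold actin and tubulin, had ratios above 0 in 13 of 14 genes and intervals above 0 in 11, or 78.6% (median log2 ratio 0.22). Tcp1 had 10709 and 12757 counts and Cct5 9843 and 11809, with log2 ratios of 0.30 (0.26 to 0.34) and 0.31 (0.27 to 0.35). Further HSP90 and HSP70 co-chaperones had a median of 0.02 over 21 genes, with 8 intervals above 0 (38.1%) and 5 below (23.8%). In that list Fkbp5, an HSP90-binding isomerase induced by glucocorticoids, was 2.02-fold lower on 22874 and 10972 counts (-1.01, -1.05 to -0.98). Chaperone partners in organelles had a median of -0.004 over 18 genes, with 5 intervals above 0 (27.8%) and 7 below (38.9%), and Calr and Pdia3 had log2 ratios of -0.08 and 0.03. Heat shock factors and other HSF1 targets had a median of -0.18 over 12 genes, with 2 intervals above 0 (16.7%) and 6 below (50%). That median depended on the count minimum, since it was -0.034 with a minimum of 200 counts and -0.058 with 10 or none. Serpinh1, the collagen chaperone of stromal cells, was 3.06-fold lower on 58 and 18 counts, while the fibroblast markers were lower too. The part of stromal cells in this ratio was not tested. Hsf2 had 1380 and 1789 counts and a log2 ratio of 0.42 (0.32 to 0.52), and the ubiquitin gene Ubb had 19569 and 13210 (-0.52, -0.55 to -0.49). Hsf2 and Ubb were chosen after their values were seen.

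Heat shock genes can also be induced while cells are taken from tissue and sorted, together with immediate-early genes. The list of 14 such dissociation response genes had a median log2 ratio of -0.14, with 4 intervals above 0 (28.6%, background 39.9%) and 8 below (57.1%, background 31.2%), and a summed level of 3650 CPM under LPS alone and 2850 under LPS+LCC-12. Fosb was 2.45-fold higher on 466 and 1106 counts, and the other 13 genes were within 2-fold. Fos had 11355 and 11885 counts and Jun 22465 and 15560, with log2 ratios of 0.11 and -0.48. Dusp1, with the most counts and the lowest ratio in the list, had 40614 and 20400 counts (-0.95). Its level was 813 CPM under LPS alone and 422 under LPS+LCC-12, a large part of the difference in the summed level. Fos, Jun and Dusp1 were chosen after their values were seen. The part of sorting in the ratios of Hspa1a and Hspa1b was not tested.

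**Figure D5:**
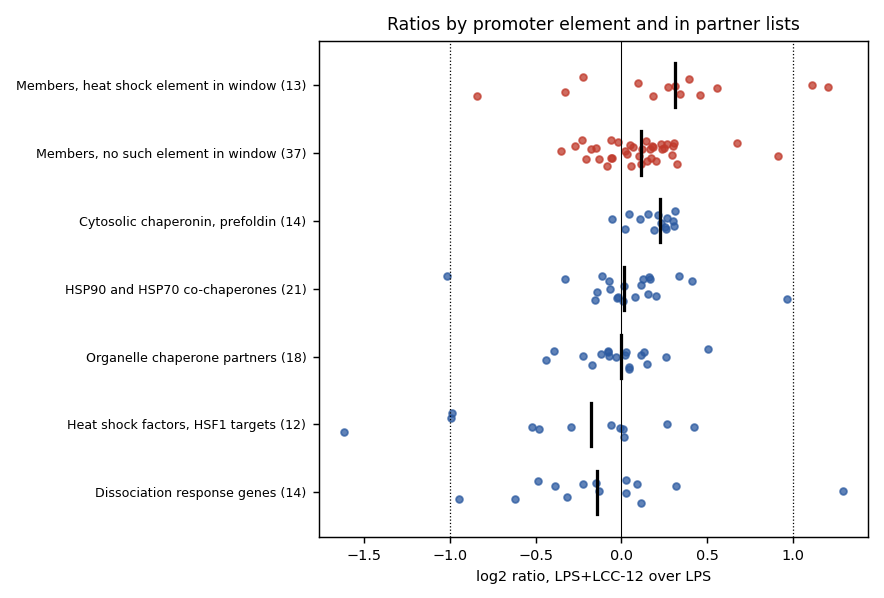
Log2 ratio of LPS+LCC-12 over LPS (horizontal axis) for members with and without a 2-unit heat shock element in their promoter window (red) and for the partner lists (blue), 1 point per gene that reached 50 counts in either library. Black bars are medians and dotted lines 2-fold differences, and vertical scatter within a row has no meaning. Medians are 0.31 and 0.11 for the members and 0.22 for the cytosolic chaperonin and prefoldin.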

How the data were processed

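RNA from sorted, pooled cells (10 ng per group) was made into ribosome-depleted stranded libraries, per the labels' protocols. The authors deposited whole-number counts for each gene without normalization. Alignment with STAR and the mm10 build come from the submitters' processing notes. For the counting tool, its strand setting and its annotation, the sources used here give nothing. Symbols, biotypes and exon lengths came from GENCODE M21 (GRCm38), which matched 55394 of 55487 IDs. The other 93 held 304 and 325 counts.

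Library sizes were scaled by TMM (edgeR 4.0.16, R 4.3.3), and 0.5 counts were added in ratios. Each ratio has an exact 95% Clopper-Pearson interval of the split of its counts (scipy 1.17.1), which covers counting error only. A gene was called higher or lower from 2-fold upwards, given at least 50 counts in 1 library. With 1 library per group, no test was made. Shared sequence was measured as distinct 100-base windows of GENCODE M21 transcripts found in another gene, on either strand. Exon overlaps were found with bedtools 2.31.1. The calculation of ratios and intervals was tried on simulated counts that held counting error only, with no spread between mice.

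Named genes were the members past 2-fold, 22 genes always taken, and in each role group the 3 highest per kb and the highest and lowest ratio; further members are named so that all are accounted for. In each partner list, those past 2-fold were named, or else the 2 with the most counts. Members and lists were chosen with earlier results of these data known. The alternatives were 4 other scalings (DESeq2 1.42.0 for one), other count minimums, size limits and added counts, and the merging or leaving out of genes that share sequence.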

Additional observations from a re-analysis of the deposited data

Results flagged for a closer look

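Processed pseudogenes that carry the symbols of these families were outside the comparison. Of 14 such loci, 9 had 0 counts in both libraries, and 3 had more counts in 1 library than the 3 that a count of 0 allows. Hspd1-ps3 had 24 counts under LPS alone and 27 under LPS+LCC-12. Hspe1-ps5 had 16 counts under LPS alone and 0 under LPS+LCC-12. Dnajc19-ps had 7 and 5 counts. Whether these counts came from the pseudogenes or from reads of the parent genes was not tested.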

How the results depend on the processing

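The number of members at least 2-fold higher (2) and lower (0) was the same under the 4 other scalings, with 5 added counts, with a minimum of 200 counts, with the whole interval beyond 2-fold and with Hspa8 and Gm15459 summed. It became 4 higher and 1 lower with a minimum of 10 counts, and 5 and 3 with no minimum, where genes of few counts enter. It became 6 and 1 at 1.5-fold, and 0 higher at 3-fold. With Hspa1a and Hspa1b summed, 1 was higher. Without members that overlap other exons, 1 was higher, Hspa1b, since Hspa1a is then left out. Without the 15 members that share over 10% of their windows with another gene, 0 were, since both are left out. The last alternative and the sum with Gm15459 were chosen after seeing the data. The median over members ran from 0.080 to 0.17. The number of members whose interval excluded 0 was 42, and ran from 39 to 47 under the 4 other scalings. Small ratios are thus sensitive to the scaling. Those of Hsp90aa1 and Dnajb11 were -0.008 and -0.001 in total counts without mitochondrially encoded genes and the 100 most abundant genes. Of 180 values of 36 named genes under other scalings or added counts, 150 stayed within their counting interval, 29 moved beyond it and 1 reversed, Hspa5 by the upper quartile (-0.012). Of 35 medians of partner lists, 5 moved: that of the heat shock factors and HSF1 targets to -0.058 with a minimum of 10 counts or none and to -0.034 with 200, and, in total counts without mitochondrially encoded genes and the 100 most abundant genes, those of the cytosolic chaperonin list to 0.28 and the dissociation genes to -0.079. The scalings moved the median of all protein-coding genes by -0.034 to 0.060. No paired analysis was possible because each group has 1 library. Depth limits the 8 members with fewer than 50 counts.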

Other observations

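Some loci that share sequence with members had ratios unlike those of the member. The protein-coding gene AC117239.2, which shares 138 windows with Hspe1, had 85 counts under LPS alone and 197 under LPS+LCC-12, whereas Hspe1 was lower. The pseudogene Gm15542, which shares 717 windows with Dnaja1, had 250 and 175 counts, whereas Dnaja1 was higher. Gm8355, a further pseudogene that shares 678 windows with Hspa8, had 122 and 201 counts and lay on the same side as Hspa8. Bag5, a co-chaperone of HSP70 outside the rule, had 474 and 895 counts, 1.95-fold more after scaling (log2 ratio 0.96, 0.80 to 1.13). These genes were chosen after their values were seen.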
